A study of Mus musculus with 4 samples.

Results

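The interleukin 6 (IL-6) family was followed on the arrays through 10 genes: 6 cytokines (Il6, Lif, Il11, Clcf1, Osm and Ctf1), 3 receptor chains (Il6ra, Il6st and Lifr) and Socs3, the feedback inhibitor that their signal induces. Every non-control probe whose annotated gene name is one of these genes was taken, which gave 12 probes of the 55681 on the array, and 10 of its 36413 gene names. Lifr has 3 probes and each of the other genes has 1. The RNA came from C2C12, a mouse line of proliferating myoblasts, that received either an siRNA directed at Fxr1 (siFxr1) or a control siRNA (siControl). Fxr1 encodes FXR1P, an RNA-binding protein of the Fragile X family, and the siRNA matches an exon present in all of its transcripts; the conditions differ in the siRNA, with no other genotype or agent named for these arrays. Transfected cells were analysed 48 hrs after transfection. The 2 biological replicates of each condition came from 2 experiments, each with its own slide for both conditions, which makes 4 one-colour arrays. Each value is the normalized log2 signal of a probe, that is, the log2 brightness of its spots after the 4 arrays were brought to the same distribution.

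Some cytokines of the family, such as IL-6 and IL-11, first bind a private receptor chain. All of them signal through the shared chain gp130, the product of Il6st, either as a pair or together with a partner such as the LIF receptor. Janus kinases on these chains phosphorylate STAT3, which enters the nucleus and switches on target genes, among them Socs3, whose product binds gp130 and the kinases and shuts the signal off. Skeletal muscle releases IL-6, and both IL-6 and LIF act on myoblasts. The mRNAs of several of these cytokines are short-lived and carry AU-rich elements, whose core is ATTTA in DNA letters.

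The probes of Lif and Il11 hold this core, and Il6, Lif, Il11 and Socs3 have short factor motifs upstream of their start, so these sequences are shown first. ATTTA was found in 2 of the 12 probes of the family and in 7.71% of all probes on the array. Read 5′ to 3′ with ATTTA in capitals, bases 14 to 43 of the Lif probe and bases 31 to 60 of the Il11 probe are the following.
Lif probe: ggggcctttATTTAttATTTAaaacttcaa
Il11 probe: tcttcctcacttcctacattATTTAttaaa
The Lif probe holds the core 2 times and the Il11 probe holds it 1 time, while the Il6 probe, with 65.0% A and T like that of Lif, holds 0. A probe shows only 60 bases of a transcript, so this describes the probes and not the whole mRNAs.

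Upstream sequences were taken from RefSeq (GRCm38.p6), where 8 of the 10 genes, all but Osm and Clcf1, had an entry, in 10 windows. The 250 bases before each start were searched on both strands for 4 motifs: TTCNNNGAA, bound by STAT factors, GGANTTTCC, bound by NF-kB, TGANTCA, bound by AP-1, and TGACGT, the core of a cyclic AMP response element. These were found in 7.02%, 1.07%, 6.75% and 6.47% of 32851 upstream windows of the same length, and 19.92% held at least 1 of them. Of the 10 windows of the family, 4 did. The letters in capitals are the matches, and each sequence runs 5′ to 3′ on the strand of its gene. The 250 bases of Il6 (chr5:30012864-30013113, + strand) hold 3 matches, to the AP-1, cyclic AMP and NF-kB motifs in this order. For Lif (chr11:4257318-4257377, + strand), Il11 (chr7:4778207-4778266, - strand) and Socs3 (chr11:117969487-117969546, - strand) the 60 bases around the only match are given.
Il6: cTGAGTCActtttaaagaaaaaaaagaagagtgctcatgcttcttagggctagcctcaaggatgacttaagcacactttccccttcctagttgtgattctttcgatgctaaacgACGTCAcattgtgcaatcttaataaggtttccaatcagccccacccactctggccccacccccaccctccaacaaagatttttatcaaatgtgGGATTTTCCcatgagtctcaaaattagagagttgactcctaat
Lif: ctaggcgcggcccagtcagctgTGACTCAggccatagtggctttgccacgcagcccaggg
Il11: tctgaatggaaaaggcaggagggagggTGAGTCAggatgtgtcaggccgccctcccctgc
Socs3: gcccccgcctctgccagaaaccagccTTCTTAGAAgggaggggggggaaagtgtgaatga
The AP-1 letters begin 249 bases before the start in Il6, 228 in Lif and 98 in Il11, and the STAT letters begin 154 bases before the start in Socs3. Binding was not measured in these samples, and the matches are a description of the letters in these windows.

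Both Fxr1 probes were lower in the siFxr1 arrays than in the siControl arrays, by -3.31 (SE 0.29) and -3.61 (SE 0.28) on the log2 scale, and the conditions did not overlap. Their B values were -4.33 in the fit described below, so that this fit called neither of them. Between 45.4% and 52.94% of the probes were well above background on an array, and 0 spots were saturated. The RNA integrity number was 9 for each sample but siFxr1 of experiment 1, where it was 8. Of 6 myoblast markers, 5 were well above background on every array, and Myf5 was not. The summed intensity of these 6 markers was 122500 and 97980 in siFxr1 and 125900 and 92980 in siControl, in experiments 1 and 2. Of the leukocyte markers, Ptprc and Emr1 were not well above background on any array. The brightest Itgam probe and Cd3e were on all 4, with a log2 difference of 0.25 (SE 1.16) and 0.00 (SE 0.64). The other Itgam probes were well above background on siFxr1 of experiment 2 alone. They differed by -0.10 (SE 0.47) and, without overlap of the conditions, by 1.06 (SE 0.51). The sum of 7 leukocyte markers, of which 2 or 3 were well above background on an array, was 5765 and 13290 in siFxr1 and 4188 and 15180 in siControl, so it differed between the experiments and overlapped between the conditions. The sum of 4 endothelial markers, with 2 to 4 well above background, ran from 3747 to 4419 in siFxr1 and from 3164 to 3456 in siControl. Most of this sum came from 1 probe of Kdr, which differed by 0.30 (SE 0.19). The other Kdr probe was not well above background on any array and differed by -0.02 (SE 0.15). The sum of 5 fibroblast markers, with 3 or 4 well above background, ran from 48050 to 69710 in siFxr1 and from 54100 to 71830 in siControl. Within that list Dcn was above both siControl arrays in both siFxr1 arrays, by 0.60 in experiment 1 and 1.94 in experiment 2. Others went the other way. Col1a1 was below both siControl arrays in both siFxr1 arrays, by -0.31 and -0.60. Pdgfra was lower in both experiments, by -0.33 and -0.32, though its arrays overlapped. Itgam, Cd3e, Kdr, Dcn, Col1a1 and Pdgfra were named after their values were seen. The part of the endothelial and fibroblast markers in the values below was not tested. In cultures of this kind, a change in the number of cells that express a gene and a change in RNA per cell cannot be told apart.

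Among the cytokines, Il6 and Lif were at least 2-fold higher in siFxr1 in both experiments, Il11 was higher by close to that amount in both, and Clcf1, Osm and Ctf1 did not keep such a difference. For Lif and Il11 this size depended on the background correction, and without it their differences were 0.48 and 0.57. The shared receptor chain Il6st and Il6ra differed by less than 0.2 in either experiment, and Socs3 had opposite signs in the experiments. None of these differences passed the threshold that the study's methods name, limma's B value (log odds of a change) above 0. The fit held all 55681 probes with the condition as its only term. This is 1 reading of the methods, and a fit of ratios is given below. The threshold was passed by 0 of the 12 probes and by 0% of all probes. The lowest Benjamini-Hochberg adjusted p of any probe was 0.950. The highest B value of any probe was -4.33, so that failing this threshold does not set the family apart. An unadjusted p under 0.05 was given by limma to 3 of the 12 probes, those of Il6 and Lif and 1 of Lifr, against 4.96% of all probes. With the experiment as a block it was given to 4 of the 12, Il11 being the added one, against 8.85% of all probes. For 2 arrays against 2, a two-sided exact permutation test cannot give a p below 0.333. The number of arrays limits the precision throughout.

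**Figure D1:**
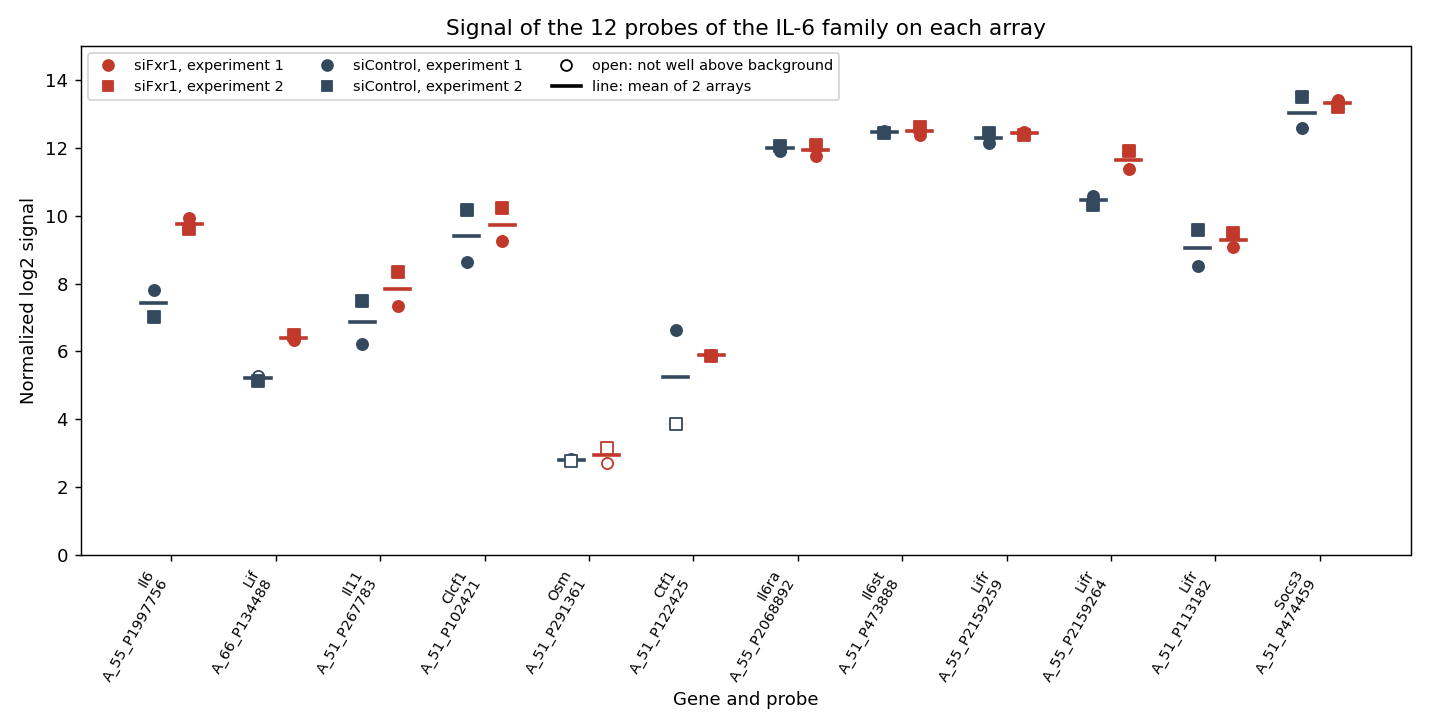
Normalized log2 signal (vertical axis) of each of the 12 probes (horizontal axis) on the 4 arrays, with siControl at the left and siFxr1 at the right of each pair, circles for experiment 1, squares for experiment 2 and a line at the mean of 2 arrays. Open symbols were not well above background. The siFxr1 arrays lie above both siControl arrays for Il6, Lif and the Lifr probe A_55_P2159264.

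Il6 encodes the founding cytokine of the family. Its probe A_55_P1997756 (NM_031168, chr5:30346367-30346426 of mm9) is printed in 2 spots and was well above background on all 4 arrays. The signal was 9.93 and 9.60 in siFxr1 of experiments 1 and 2, and 7.82 and 7.02 in siControl. The lower siFxr1 array lay 1.78 above the higher siControl array. The log2 difference was 2.11 in experiment 1 and 2.58 in experiment 2, with a fitted mean of 2.35 (SE 0.37, limma adjusted p = 0.950), which is 5.09-fold. The conditions differed more within an experiment than the experiments did within a condition, where the second was lower by -0.33 in siFxr1 and by -0.80 in siControl.

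Because the samples of an experiment shared a slide, the fit was repeated with the experiment as a block. The SE of Il6 was then 0.23, its 95% interval was 1.62 to 3.07, and its B value was -2.45 (limma adjusted p = 0.535), so that the call did not change with the block alone. When the block was joined with a filter that kept 25540 probes, those well above background throughout 1 condition or both, the B value of Il6 was 2.21 (limma adjusted p = 0.0304). In that fit Il6 was the 1 probe of the family above 0, and 0.826% of the 25540 probes were called higher. With the block and the median intensity of a spot minus its local background, Il6 differed by 2.14 with a B value of 3.27, and was again the 1 probe of the family above 0, where 0.383% of all probes were called higher. The methods of the study speak of ratios from all comparisons, and when the 4 ratios of a siFxr1 over a siControl array were fitted as 4 observations, 2 of the 12 probes had a B value above 0, Lif with 2.45 and Il6 with 1.02. In that fit 1.03% of all probes were called higher, and since its ratios share arrays it understates the error.

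Lif encodes leukemia inhibitory factor, which signals through Lifr and gp130. Its probe A_66_P134488 (NM_008501, chr11:4172032-4172091 of mm9) is one of the probes with ATTTA shown above. The signal was 6.33 and 6.48 in siFxr1 and 5.28 and 5.13 in siControl, in experiments 1 and 2. It was not well above background on the siControl array of experiment 1 and was on the other arrays. The replicates lay closer together than those of Il6, and the conditions did not overlap. The log2 difference was 1.06 in experiment 1 and 1.35 in experiment 2, with a fitted mean of 1.21 (SE 0.17, limma adjusted p = 0.950). The size of this difference depended on the background treatment of a dim probe: without background correction it was 0.48, and then Il6 alone of the family was 2-fold higher in both experiments.

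Il11 encodes a cytokine that pairs Il11ra with gp130. Its probe A_51_P267783 (NM_008350, chr7:4724847-4724906 of mm9, - strand) was well above background on all 4 arrays. The signal was 7.33 and 8.33 in siFxr1 and 6.21 and 7.50 in siControl, in experiments 1 and 2. Within each experiment the siFxr1 array was the higher one, but siControl of experiment 2 lay above siFxr1 of experiment 1. The differences were 1.12 and 0.83, with a fitted mean of 0.98 (SE 0.66, limma adjusted p = 0.975) and an interval from -1.03 to 2.98. With the experiment as a block, the SE was 0.21 and the interval was 0.33 to 1.63, with a limma adjusted p of 0.535. Without 1 array in turn, the difference lay between 0.33, without siControl of experiment 1, and 1.62, without siControl of experiment 2.

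Clcf1 and Ctf1 encode cytokines that signal through Lifr and gp130. The Clcf1 probe A_51_P102421 (NM_019952, chr19:4222480-4222539 of mm9) had a signal of 9.24 and 10.22 in siFxr1 and 8.62 and 10.18 in siControl. Its difference was 0.62 in experiment 1 and 0.04 in experiment 2, and the conditions overlapped. The Ctf1 probe A_51_P122425 (NM_007795, chr7:134861581-134861640 of mm9), printed in 10 spots, had a signal of 5.90 and 5.87 in siFxr1 and 6.63 and 3.85 in siControl. The siControl array of experiment 2, where it was not well above background, stood apart, and the differences were -0.73 and 2.01. The direction of Ctf1 therefore differed between the experiments. Osm encodes oncostatin M, a cytokine made mainly by blood cells. Its probe A_51_P291361 (NM_001013365, chr11:4140146-4140205 of mm9) was not well above background on any of the 4 arrays, with signals between 2.71 and 3.17, so that no change is read from its differences.

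**Figure D2:**
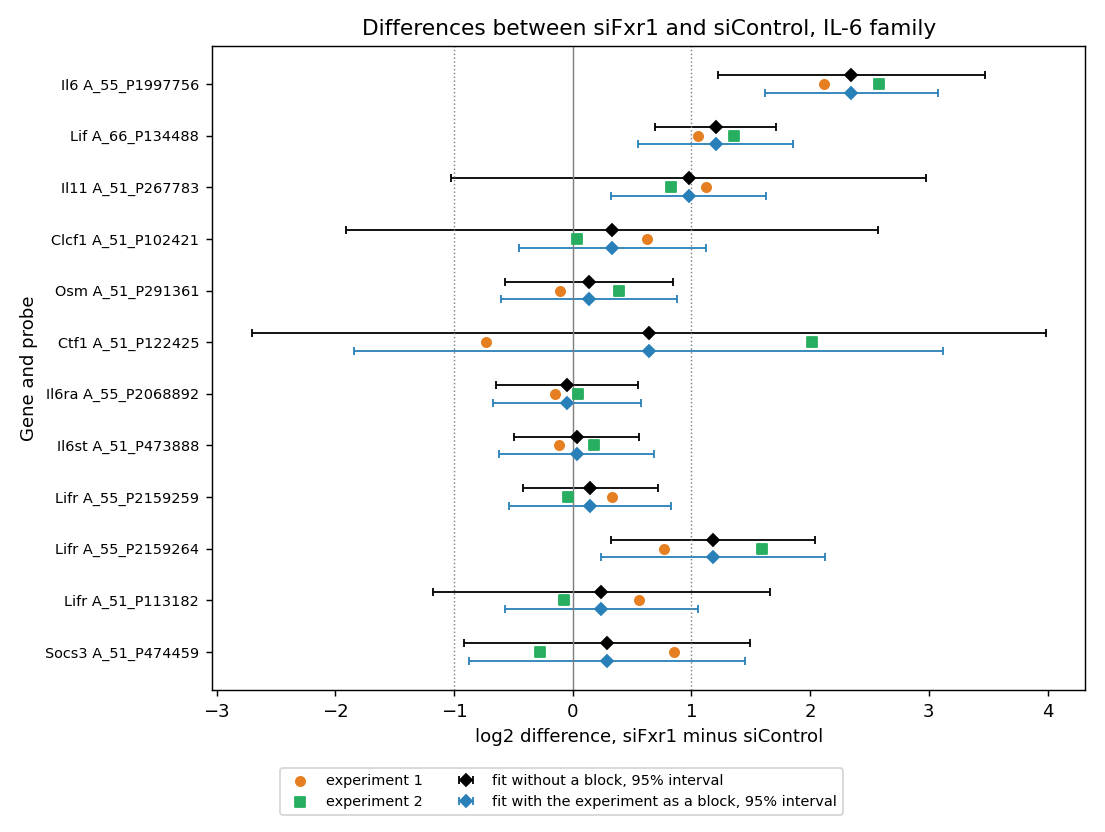
Log2 difference of siFxr1 minus siControl (horizontal axis) for each of the 12 probes (vertical axis). Diamonds with bars are the fitted difference and its 95% interval without a block (black) and with the experiment as a block (blue), circles and squares are the differences within experiments 1 and 2, and dotted lines mark 2-fold. Il6 and Lif lie beyond 2-fold in both experiments, and the interval of Il11 leaves out 0 only with the block.

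Among the receptor chains, Il6ra encodes the chain that binds IL-6 itself. Its probe A_55_P2068892 (NM_010559, chr3:89674054-89674113 of mm9, - strand) had a signal of 11.77 and 12.08 in siFxr1 and 11.92 and 12.04 in siControl, in experiments 1 and 2. Both siControl arrays lay between the siFxr1 arrays, and the difference was -0.05 (SE 0.20, limma adjusted p = 0.993), with an interval of -0.65 to 0.55. The Il6st probe A_51_P473888 (NM_010560, chr13:113296586-113296645 of mm9), for the gp130 chain that the 6 cytokines share, had a signal of 12.38 and 12.61 in siFxr1 and 12.50 and 12.43 in siControl. These values overlapped too. Its difference was 0.03 (SE 0.17), with an interval of -0.50 to 0.56, and on 4 other versions of the signal it was between -0.05 and -0.02. The intervals of both genes leave out a 2-fold difference, and leave room for smaller ones.

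Lifr encodes the chain for LIF, cardiotrophin and related ligands, and its 3 probes disagreed. The probe A_55_P2159264, annotated to transcript variant 2 (NM_001113386, chr15:7135072-7135131 of mm9), had a signal of 11.36 and 11.91 in siFxr1 and 10.59 and 10.31 in siControl, in experiments 1 and 2. The conditions did not overlap, and the difference was 0.77 in experiment 1 and 1.60 in experiment 2. The fitted mean was 1.18 (SE 0.28, limma adjusted p = 0.967), which is 2.27-fold. Its B value was -0.59 in the fit of the 4 ratios and -3.21 with the block.

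The other Lifr probes are annotated to variant 1 (NM_013584). The brightest, A_55_P2159259 (chr15:7147319-7147378 of mm9), had a signal of 12.47 and 12.38 in siFxr1 and 12.14 and 12.42 in siControl. Its difference was 0.33 in experiment 1 and -0.04 in experiment 2, with a fitted mean of 0.15 (SE 0.19). The probe A_51_P113182 (chr15:7141150-7141209 of mm9) differed by 0.55 and -0.07, with a fitted mean of 0.24 (SE 0.47). At both, the siFxr1 and siControl arrays overlapped. Whether the variants differ from each other in their response was not tested, and the part of the gene each probe covers was not annotated here, since no annotation of mm9 was used.

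Socs3 encodes the inhibitor that STAT3 induces and that ends the signal of gp130. Its probe A_51_P474459 (NM_007707, chr11:117827480-117827539 of mm9, - strand) had a signal of 13.42 and 13.21 in siFxr1 and 12.57 and 13.48 in siControl, in experiments 1 and 2. Both siFxr1 arrays lay between the siControl arrays. The difference was 0.85 in experiment 1 and -0.28 in experiment 2, with a fitted mean of 0.29 (SE 0.40, limma adjusted p = 0.975). The interval, from -0.92 to 1.50, holds both 0 and a 2-fold difference, and no difference in Socs3 was detected.

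Counted over the family, 2 of the 12 probes were at least 2-fold higher in siFxr1 in both experiments, against 1.39% of all probes, and 0 were lower by that much, against 1.16%. Both siFxr1 arrays lay above both siControl arrays for 3 of the 12, where 12.7% of all probes did so, and below them for 0, against 22.8%. In both experiments 5 probes were higher, against 23.3% of all probes, and 0 were lower, against 35.6%. Of the 12 probes, 11 were well above background throughout siFxr1, siControl or both, beside 25540 of all 55681. The shares over all probes thus hold more dim probes, and these shares were not taken among the brighter probes alone. The median difference of the 12 was 0.31, with 0.59 in experiment 1 and 0.28 in experiment 2, beside -0.01 over all probes. With 1 probe a gene, the brightest, the median was 0.81 over the 6 cytokines, Osm included, and 0.03 over the 3 receptor chains. The medians of the 12 probes and of the cytokines depended on the background correction: without it the median was 0.17 over the 12 probes and 0.35 over the cytokines, and with normexp it was 0.15 and 0.35. These counts and medians come from no test.

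The family also varied between the experiments. Il11 and Clcf1 were higher in experiment 2 than in experiment 1 in both conditions. For Il11 the difference between the experiments was 1.00 in siFxr1 and 1.29 in siControl, with a fitted mean of 1.15 (SE 0.21, limma adjusted p = 0.141). For Clcf1 it was 0.97 and 1.56, with a fitted mean of 1.27 (SE 0.25, limma adjusted p = 0.152). For Clcf1 this is larger than its difference between siFxr1 and siControl in either experiment. Of the 12 probes, 0 had a B value above 0 for the experiment, as against 1.19% of all probes. Clcf1 reached a B value of 0.44 with normexp background correction (limma adjusted p = 0.0187), of 0.74 without background correction and of 0.88 in the authors' normalized table. With B values below 0, its limma adjusted p was 0.025 with the median intensity minus background and 0.028 among the 25540 brighter probes. Il11 had a limma adjusted p of 0.0417 with normexp, 0.0347 with 75th percentile scaling and 0.038 without background correction. It was 0.0348 in the authors' table, 0.0286 among the 25540 brighter probes and 0.081 with the median intensity minus background. The B value of Il11 was below 0 in each. The Lifr probe A_51_P113182 differed by 0.74 between the experiments. Its limma adjusted p was 0.0449 with normexp, 0.0333 without background correction and 0.0304 in the authors' table, also with B values below 0. Lif differed by 0.00 (SE 0.21) between the experiments. Experiment and slide are the same split, so they cannot be told apart.

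**Figure D3:**
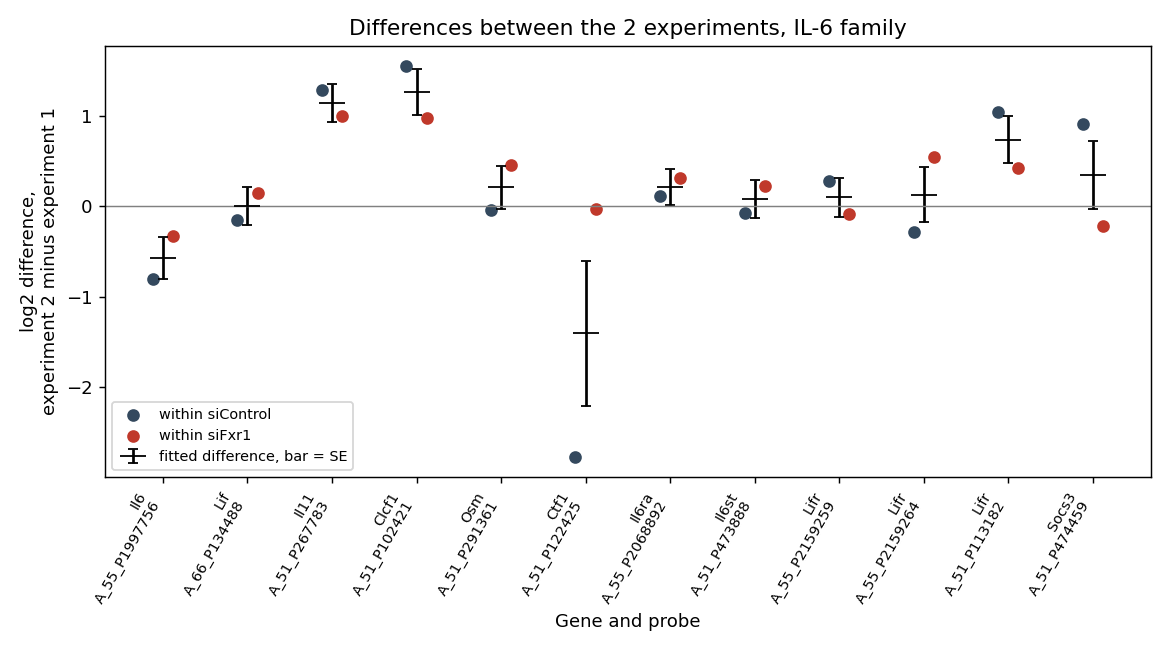
Log2 difference of experiment 2 minus experiment 1 (vertical axis) for the 12 probes (horizontal axis), within siControl (dark points) and within siFxr1 (red points), with the fitted difference and its SE in black. Il11 and Clcf1 lie above 0.9 in both conditions, and Ctf1 has a difference of -2.78 in siControl alone.

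The rest of the pathway was read from lists of other family genes, signal transducers, negative regulators and STAT3-responsive transcripts, with the brightest probe for each gene. Of all gene names, 1.65% reached a 2-fold higher signal in siFxr1 in both experiments, and 1.11% a 2-fold lower one. With no limit on the size, 25.5% were higher and 34.2% lower in both. Of the 52 genes in the lists, 1 was 2-fold higher in both, Cish, and 1 was 2-fold lower in both, Pim1. The B value was below 0 for all 52 genes in the fit with the condition as its only term, as it was for every probe.

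The list of 11 other ligands and receptors of the family, with the related IL-31 and its receptor, which do not use gp130, had a median of 0.48, beside 0.00 over all gene names. Without background correction this median was 0.14. In both experiments 7 were higher and 3 lower in siFxr1, but 2 of the 7 and all 3 of the lower genes were not well above background on any array. Il11ra1, the receptor chain for IL-11, had a signal of 9.34 and 9.29 in siFxr1 and 8.37 and 7.66 in siControl, in experiments 1 and 2. The conditions did not overlap, and the difference was 1.30 (SE 0.32, limma adjusted p = 0.967), with 0.97 and 1.63 in the experiments. Mouse Il11ra2 is nearly identical in sequence, so this probe may read both genes. Ctf2, which encodes a cardiotrophin, had a signal of 6.41 and 4.74 in siFxr1 and 5.57 and 2.69 in siControl. It was not well above background on the siControl array of experiment 2. Its difference was 1.44 (SE 1.31), the arrays overlapped, and on other versions of the signal the difference was as low as 0.21.

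The list of 11 kinases, STAT factors and adaptors had a median of -0.09, with 3 higher and 4 lower in both experiments, 1 of the lower ones not well above background on any array. Stat3 itself differed by -0.04 (SE 0.23). It was named here after its values were seen. Stat5b had the largest difference of the list. Its signal was 10.55 and 9.78 in siFxr1 and 11.19 and 10.87 in siControl, in experiments 1 and 2. The siFxr1 arrays were the lower ones, by -0.65 in experiment 1 and -1.09 in experiment 2, with a fitted mean of -0.87 (SE 0.36, limma adjusted p = 0.975). Its other probe, A_55_P2031045, differed by -1.03 (SE 0.19), in the same direction.

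Among 10 negative regulators, 5 were higher and 4 lower in both experiments, with a median of 0.21, and of 0.09 without background correction. Cish, a SOCS family member that STAT5 induces and that restrains cytokine receptors, had a signal of 10.10 and 10.94 in siFxr1 and 8.65 and 9.54 in siControl, in experiments 1 and 2. The siFxr1 arrays were above both siControl arrays. The difference was 1.45 in experiment 1 and 1.40 in experiment 2, with a fitted mean of 1.43 (SE 0.50, limma adjusted p = 0.975). The SE holds a difference of 0.87 between the experiments that both conditions shared, and with the experiment as a block it was 0.19.

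Of 20 transcripts that STAT3 is known to induce, 8 were higher and 5 lower in siFxr1 in both experiments, with a median of 0.20. Of the 5, 2 were not well above background on any array. Pim1, a serine/threonine kinase that STAT factors induce, had a signal of 7.30 and 7.21 in siFxr1 and 8.49 and 9.39 in siControl, in experiments 1 and 2. It was lower in siFxr1 by -1.19 in experiment 1 and by -2.18 in experiment 2, with a fitted mean of -1.68 (SE 0.38, limma adjusted p = 0.967), and the conditions did not overlap. Timp1, an inhibitor of metalloproteinases, was named after its values were seen, as the 1 gene of this list with a B value above 0 in the fit of the 4 ratios. It was higher in siFxr1 by 0.71 and 1.01. Pim1 and Timp1, both on this list, differed in opposite directions, and the activity of STAT3 was not tested.

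**Figure D4:**
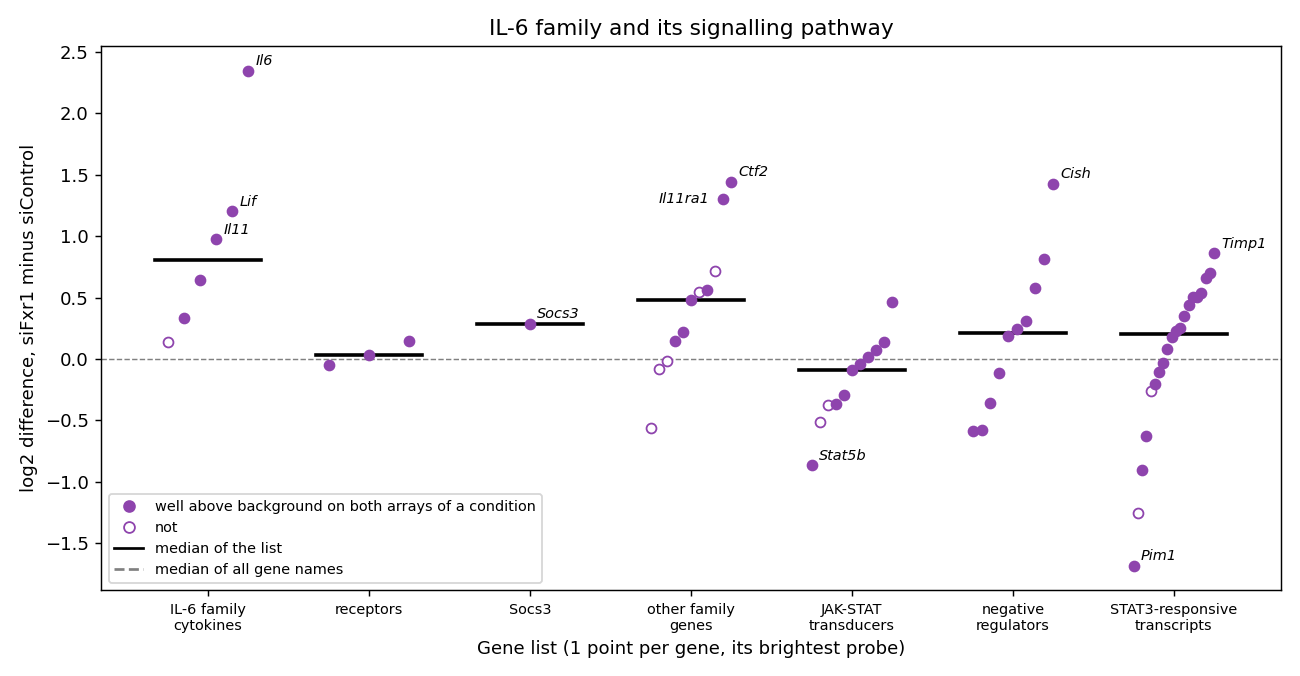
Log2 difference of siFxr1 minus siControl (vertical axis) for the family and for the other genes of its pathway, by list (horizontal axis), with 1 point for the brightest probe of each gene and a line at the median of each list. Filled points were well above background throughout at least 1 condition. The medians are 0.81 for the cytokines (0.35 without background correction), 0.03 for the receptors (-0.01), 0.48 for other family genes (0.14) and -0.09 for the signal transducers (-0.08).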

How the data were processed

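The authors deposited, for each of the 4 Agilent one-colour mouse arrays, spot intensities read with Feature Extraction 10.7.3.1, background-corrected within the array and not normalized between arrays, and a table of normalized intensities that ranks spots as the raw median intensity does. In R 4.3.3, log2 of the background-corrected intensity was quantile-normalized over 59305 non-control spots. Spots marked as outliers, 145 to 177 an array, were left out and spots of a probe averaged. limma 3.58.1 (lmFit and eBayes, expected share 0.01) was fitted to all 55681 probes with the condition as its only term. Well above background means at least 0.5 of a probe's spots marked so by the software. The fits were checked on simulated data.

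Experiments pair the samples according to the labels and the shared slide. Around the condition means, samples of 1 experiment deviated together (r 0.714, over the 25540 probes well above background throughout 1 condition or both).

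All probes of the 10 genes were named. From the other lists, genes 2-fold different in both experiments and well above background were named, otherwise the 2 largest. Some of the items this rule or the marker lists cover are not reported here. Members and lists were chosen with earlier results of these data known. The methods call the replicates biological. The 15 alternatives were 75th percentile scaling, 4 other background treatments or tables, dropping dim probes, a block for the experiment (alone, with that filter, with the median intensity minus background), a variance prior with a trend, the 4 ratios, and each of the 4 arrays left out. Motifs were counted in Python.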

Additional observations from a re-analysis of the deposited data

How the results depend on the processing

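The differences of Il6, Lif, Il11 and the Lifr probe A_55_P2159264 kept their direction under the 15 alternatives. So did the small difference of the Lifr probe A_55_P2159259, which lay between 0.003 and 0.29. Il6 lay between 1.83 and 2.75 over all of them and Lif between 0.48 and 1.28. Leaving out each array in turn gave 1.95 to 2.75 for Il6, 1.13 to 1.28 for Lif and 0.33 to 1.62 for Il11. It gave 0.91 to 1.46 for the Lifr probe A_55_P2159264. Of the 12 probes, 1 in place of 2 was at least 2-fold higher in both experiments with normexp, with no background correction, with the median intensity minus background and in the authors' normalized table. The difference of Il6st turned to -0.0226 with normexp, -0.0519 without background correction, -0.0539 with the median intensity minus background, where the block left it at -0.0539, and -0.0516 in the authors' table. With each array left out in turn, directions also turned for Clcf1 (-0.448 to 1.11), Osm (-0.0926 to 0.369, not well above background), Ctf1 (-0.749 to 2.03), Il6ra (-0.207 to 0.106), Il6st (-0.0812 to 0.146), the Lifr probe A_51_P113182 (-0.284 to 0.766) and Socs3 (-0.169 to 0.746). Leaving out an array unbalances the experiments, so that their difference enters the comparison.

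With the replicate block (the pairing by experiment) 0 probes had a B value above 0, as without it. An unadjusted p under 0.05 was given by limma to 2764 probes without the block and to 4927 with it. The block with the filter on dim probes gave 354 probes with a B value above 0, the block with the median intensity minus background 343 and the 4 ratios 1107, and leaving out each array or a variance prior with a trend 0. Over the 12 probes, the unadjusted p fell below 0.05 with the block for Il11 (0.0169, against 0.227 without it). The block alone changed no call by the B value. For the experiments, 664 probes had a B value above 0, against 3202 with 75th percentile scaling, 1929 with normexp, 2127 without background correction, 1710 with the median intensity minus background, 2240 in the authors' table, 1284 with the filter and 878 with that prior, and the cause was not tested. Osm has no value under the filter. The 2 arrays of a condition limit the precision, and for Lif, Ctf1 and Ctf2, each not well above background on 1 siControl array, the background correction does so too.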
